A study of Homo sapiens with 6 samples.

Results

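Of the 59074 genes measured, 9 genes of bicarbonate, lactate and proton transport were followed in 3 glioblastoma cell lines: SLC4A2, SLC4A4, SLC4A7, SLC4A8, SLC16A1, SLC16A3, CA9, CA12 and BSG. They were chosen by gene symbol with their levels and changes in these data known, so these levels and changes are given as a description. The fit over all genes included them, but their calls in it are only counted and support nothing. RNA of LN-229, T98G and U251, 3 established lines grown from human glioblastoma, was sequenced 72 h after transfection with siPOOLs, which are mixtures of many siRNAs against the same transcript. siControl cells received a non-target siPOOL and siHOTAIRM1 cells a siPOOL against the long non-coding RNA HOTAIRM1, and each line gave 1 library of each kind, 6 in all, so the cell lines are the only replicates and a difference within a line has no replicate check. The knock-down was transient and untransfected cells were not analysed here. The labels name the first line LNT229 in the sample titles and LN-229 in its cell line entry. No tumour tissue was included, and a line grown in culture has none of the surrounding cells of a tumour.

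Tumour cells that make much lactate and CO2 have to export acid to keep the pH of their cytoplasm. Lactate leaves together with a proton through monocarboxylate transporters of the SLC16 family, bicarbonate is moved across the membrane by the SLC4 family, and the membrane-bound carbonic anhydrases CA9 and CA12 convert CO2 and water to bicarbonate and protons at the outer face of the cell. CA9 and SLC16A3 are known targets of the hypoxia-inducible factor HIF-1.

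The depth of the libraries was 52.3 to 104 M reads, inferred from the CPM value of a single read, and a level of 3 reads corresponded to 0.0289 to 0.0574 CPM (reads per 1000000 reads of the library). The listed genes held 42.9 to 67.2% of the CPM scale, with the highest share in U251 siControl, where the signal recognition particle RNA RN7SL1 stood at 60589 CPM against 11862 to 27894 CPM in the other 5 libraries. HOTAIRM1 was lower after knock-down in every line. It stood at 1.99 CPM in siControl and 0.952 CPM in siHOTAIRM1 of LN-229, at 3.49 and 2.14 CPM in T98G, and at 1.27 and 0.622 CPM in U251. Its mean change over the 3 lines was -0.54 ± 0.069 (SD, n = 3) on the log2(CPM + 1) scale. It was lower in 3 of 3 lines, as were 28.1% of the 14294 genes averaging 1 CPM or more. It was called lower in limma with an adjusted p of 0.0146. This call was lost without LN-229 (adjusted p = 0.0711) and without T98G (0.435), with centring (0.17), rescaling (0.229), no filter (0.677), no block (1.0) and a t-statistic per gene (0.637). All 8 glial markers reached 1 CPM in at least 1 library, with a sum of 889 to 3110 CPM, although the astrocyte marker GFAP was at 20.7 to 42.5 CPM in U251 and at 0.0434 to 0.317 CPM in the other lines. The summed markers were 26.9 to 90.2 CPM for neurons, 0.864 to 9.81 CPM for microglia and leukocytes, 0.417 to 11.5 CPM for endothelium and 0 to 0.275 CPM for epithelium.

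On hg38 (GENCODE v44), the bicarbonate transporter genes lie at chr7:151057210-151076526 (SLC4A2, plus strand), chr4:71062667-71572087 (SLC4A4, plus), chr3:27372721-27484420 (SLC4A7, minus) and chr12:51391317-51515763 (SLC4A8, plus). The lactate transporter genes lie at chr1:112911847-112957593 (SLC16A1, minus) and chr17:82217934-82261129 (SLC16A3, plus), with BSG at chr19:571277-583494 (plus). CA9 lies at chr9:35673928-35681159 (plus) and CA12 at chr15:63321378-63381846 (minus), so the 9 genes lie on 9 chromosomes.

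The stretches before the start sites of 4 of the genes are shown because these 4 had the largest changes in single lines. They were taken from RefSeq (GRCh38.p14), in which 8 of the 9 genes had an entry and SLC16A1 had none. Each is written 5′ to 3′ on the strand of the gene, with ACGTG, the core of the site bound by HIF, in capitals on whichever strand it was found (CACGT is the same motif on the other strand).
CA9: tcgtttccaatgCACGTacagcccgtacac
SLC16A3: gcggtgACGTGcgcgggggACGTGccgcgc
CA12: ataaaagctgcccggggaagccaggagagc
SLC4A8: ctctcgctgattggttgcggcggatgcctc
The CA9 stretch lies at chr9:35673898-35673927 on the plus strand and holds the 30 bases before the start, inside an annotated exon of ARHGEF39 on the other strand. The SLC16A3 stretch lies at chr17:82228968-82228997 on the plus strand, 74 to 45 bases before 1 of its 5 annotated starts. CA12 is on the minus strand, with the 30 bases before its start at chr15:63381847-63381876, and SLC4A8 is on the plus strand, with those before 1 of its 2 starts at chr12:51424801-51424830. The RefSeq starts of SLC4A8, SLC16A3 and SLC4A2 all lie inside the GENCODE spans given above. The bases before the GENCODE starts of these genes were not searched. In the 250 bases before the start, ACGTG was found once in CA9, 18 bases before the start on the opposite strand, and in 1 of the 5 windows of SLC16A3, at 68 and at 55 bases before that start on the strand of the gene. The same 250 bases of CA12 and both windows of SLC4A8 had no match. ACGTG occurs on either strand in 18.5% of the 35116 windows of this length, and a match describes these letters only, since binding was not tested. Of the other genes, 2 of 4 windows of SLC4A2 and 1 of 2 windows of BSG held ACGTG, in each case within CACGTG, which reads the same on both strands and occurs in 6.34% of windows. These 2 windows of SLC4A2 overlap and are not separate finds. The sites 114 and 81 bases before one start are those 209 and 176 bases before the other.

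Among the bicarbonate transporters, SLC4A8 had the largest difference between the conditions. SLC4A8 encodes a sodium-driven chloride-bicarbonate exchanger that loads cells with bicarbonate. It stood at 8.60 CPM in siControl and 4.19 CPM in siHOTAIRM1 of LN-229, at 4.97 and 1.86 CPM in T98G, and at 41.8 and 18.9 CPM in U251. Each siHOTAIRM1 library was below the siControl library of its own line, while the ranges of the conditions overlapped across lines because U251 was higher in both. The ratio of siHOTAIRM1 to siControl was 0.488 for LN-229 (95% counting interval 0.433 to 0.549), 0.374 for T98G (0.304 to 0.457) and 0.451 for U251 (0.424 to 0.479). These exact binomial intervals cover counting error only, not the spread between libraries. The 3 changes of log2(CPM + 1) were -0.89, -1.06 and -1.11, with a mean of -1.02 ± 0.12 (SD, n = 3). The reads behind the lowest value, in T98G siHOTAIRM1, numbered 135. Exons of SLC4A8 overlap those of GALNT6 on the other strand, and an unstranded library cannot tell reads of such pairs apart. GALNT6 was at 0.00962 to 0.101 CPM in LN-229 and T98G, and at 5.03 CPM in siControl and 3.73 CPM in siHOTAIRM1 of U251, below SLC4A8 in every library.

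SLC4A7, an electroneutral sodium-bicarbonate cotransporter that brings bicarbonate into the cell, had the highest CPM of the 9 genes in every library and as deposited, though not after centring or rescaling, the smallest mean difference between conditions of the 8 genes past the filter. Its CPM in siControl and siHOTAIRM1 was 202 and 206 in LN-229, 198 and 192 in T98G, and 260 and 273 in U251. The changes were 0.03, -0.05 and 0.07 on the log2(CPM + 1) scale (mean 0.02 ± 0.058, SD, n = 3). SLC4A2, the widely expressed chloride-bicarbonate exchanger AE2, which extrudes bicarbonate, was at 66.6 and 69.2 CPM in LN-229, at 79.4 and 61.1 CPM in T98G, and at 117 and 105 CPM in U251. It was close to level in LN-229 and lower after knock-down in T98G, where its ratio was 0.770 (0.740 to 0.802), and in U251, where the ratio was 0.899 (0.871 to 0.927). The mean change of SLC4A2, -0.16, was smaller than its SD over the lines, 0.21 (n = 3).

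SLC4A4 encodes the electrogenic sodium-bicarbonate cotransporter NBCe1, which is known from astrocytes. It was at 0.215 CPM (19 reads) in siControl and 0.212 CPM (22 reads) in siHOTAIRM1 of LN-229, and at 1.35 CPM in both T98G libraries (93 and 98 reads). No read of it was found in U251, where 3 reads would give 0.0574 CPM in siControl and 0.0296 CPM in siHOTAIRM1. T98G was thus the line with the most SLC4A4. With a mean of 0.520 CPM over the 6 libraries it was the 1 gene of the 9 that stayed below the filter of 1 CPM. In T98G the counting interval of the ratio was 0.746 to 1.34, so a moderate difference in either direction was not detectable at this depth.

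**Figure D1:**
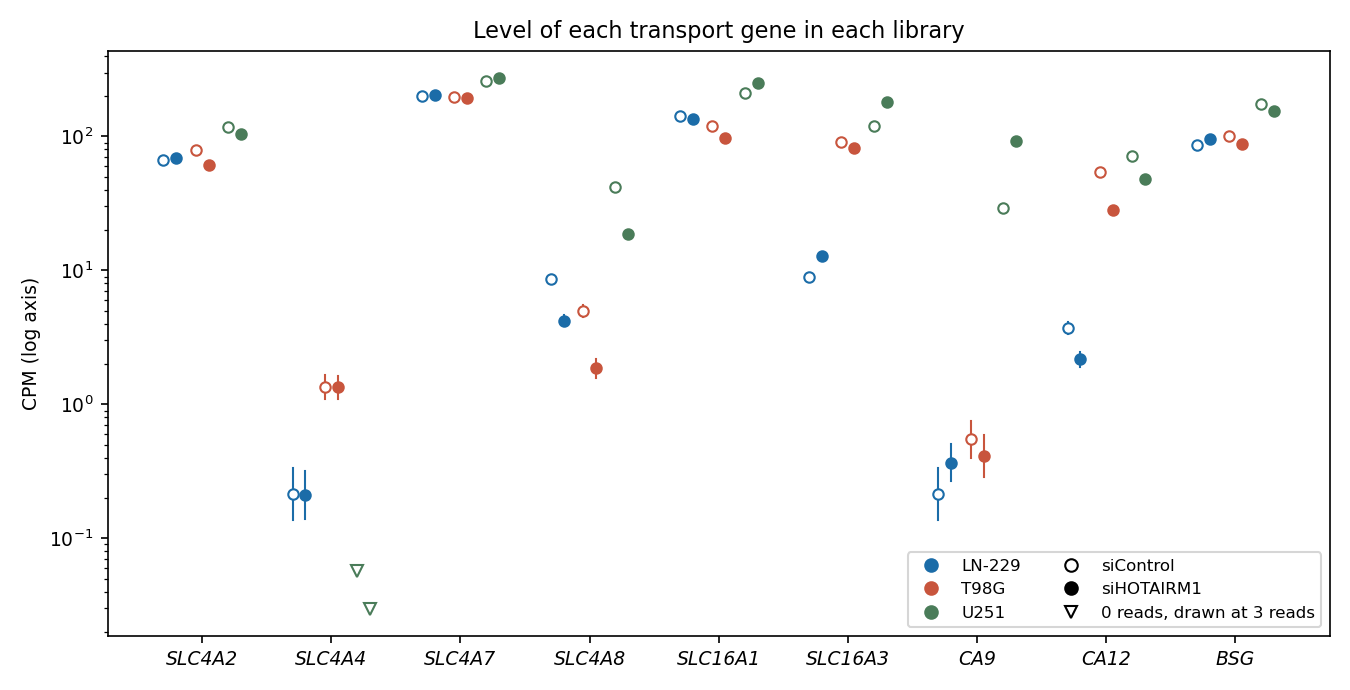
CPM (log axis) of the 9 transport genes in each of the 6 libraries, coloured by cell line, with siControl as open and siHOTAIRM1 as filled circles. Bars are 95% Wilson intervals of the reads and are hidden by the circles at high levels, and open triangles mark 0 reads, drawn at the level of 3 reads. CA9 stands at 29.1 and 92.8 CPM in U251 and below 1 CPM in the other lines, and SLC4A4 has reads only in LN-229 and T98G.

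The pair of membrane-bound carbonic anhydrases differed in direction in U251, where CA12 was lower and CA9 higher after knock-down under each scaling tried. CA12 was at 3.73 CPM in siControl and 2.16 CPM in siHOTAIRM1 of LN-229, at 53.9 and 28.1 CPM in T98G, and at 71.4 and 48.3 CPM in U251. It was lower after knock-down in each line, with ratios of 0.581 (0.488 to 0.690), 0.522 (0.494 to 0.551) and 0.677 (0.648 to 0.706). Its changes of log2(CPM + 1) were -0.58, -0.91 and -0.55 (mean -0.68 ± 0.20, SD, n = 3).

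CA9 stood at 29.1 CPM in siControl and 92.8 CPM in siHOTAIRM1 of U251, from 1522 and 9393 reads. The ratio in U251 was 3.19 (3.02 to 3.37), the largest of the 9 genes in any line. In LN-229 the gene was at 0.215 CPM (19 reads) and 0.366 CPM (38 reads), with a ratio of 1.70 (0.955 to 3.12). In T98G it was at 0.550 CPM (38 reads) and 0.412 CPM (30 reads), with a ratio of 0.75 (0.449 to 1.24). Both of these intervals include a ratio without change. In LN-229 the counting interval of the change of log2(CPM + 1), 7.5e-05 to 0.336, began just above 0. A difference was thus at the limit of this depth in LN-229 and not detectable in T98G. The mean change of CA9 over the lines, 0.56 ± 0.95 (SD, n = 3) on the log2(CPM + 1) scale, came from U251 with 1.64, and without U251 it was 0.02. CA9 shares exonic sequence with ARHGEF39 on the other strand, which was at 3.42 to 6.56 CPM in LN-229 and T98G, above CA9, and reads of the shared stretch cannot be told apart. In U251 ARHGEF39 was at 7.88 and 8.95 CPM, below CA9.

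Of the lactate transporters, SLC16A3 was higher after knock-down in LN-229 and U251 and SLC16A1 in U251, under each scaling tried. SLC16A3 encodes MCT4, the transporter of cells that export much lactate. It was at 8.94 CPM in siControl and 12.7 CPM in siHOTAIRM1 of LN-229, at 90.9 and 81.5 CPM in T98G, and at 121 and 182 CPM in U251. The ratios were 1.42 (1.30 to 1.56), 0.897 (0.866 to 0.930) and 1.51 (1.46 to 1.55), and the mean change of 0.30 was smaller than the SD over the lines, 0.40 (n = 3). T98G differed in direction from the others as deposited, but not after centring or rescaling. Exons of SLC16A3 overlap those of CSNK1D on the other strand, which was at 25.6 and 29.4 CPM in LN-229, above SLC16A3, at 30.5 and 29.8 CPM in T98G, and at 51.6 and 66.2 CPM in U251.

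SLC16A1 encodes MCT1, which carries lactate in either direction. It was at 142 and 135 CPM in LN-229, at 120 and 97.2 CPM in T98G, and at 210 and 249.1 CPM in U251. Its ratio was below 1 in LN-229 (0.948, 0.925 to 0.971) and T98G (0.808, 0.782 to 0.834) and above 1 in U251 (1.19, 1.16 to 1.21), and the mean change of -0.05 lay well within the SD of 0.28 (n = 3). Its antisense partner SLC16A1-AS1 was at 10.3 to 11.7 CPM in LN-229 and T98G, and at 5.78 CPM in siControl and 10.1 CPM in siHOTAIRM1 of U251.

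BSG encodes basigin (CD147), the chaperone that brings MCT1 and MCT4 to the membrane. It was at 85.8 and 96.4 CPM in LN-229, at 101 and 88.4 CPM in T98G, and at 175 and 154 CPM in U251. The ratio was 1.12 (1.09 to 1.16) for LN-229, 0.876 (0.847 to 0.907) for T98G and 0.881 (0.858 to 0.904) for U251. In U251 its direction was opposite to that of both transporters it carries, except after rescaling, where its change was 0.08. Its mean change of -0.07 was smaller than the SD of 0.20 (n = 3).

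**Figure D2:**
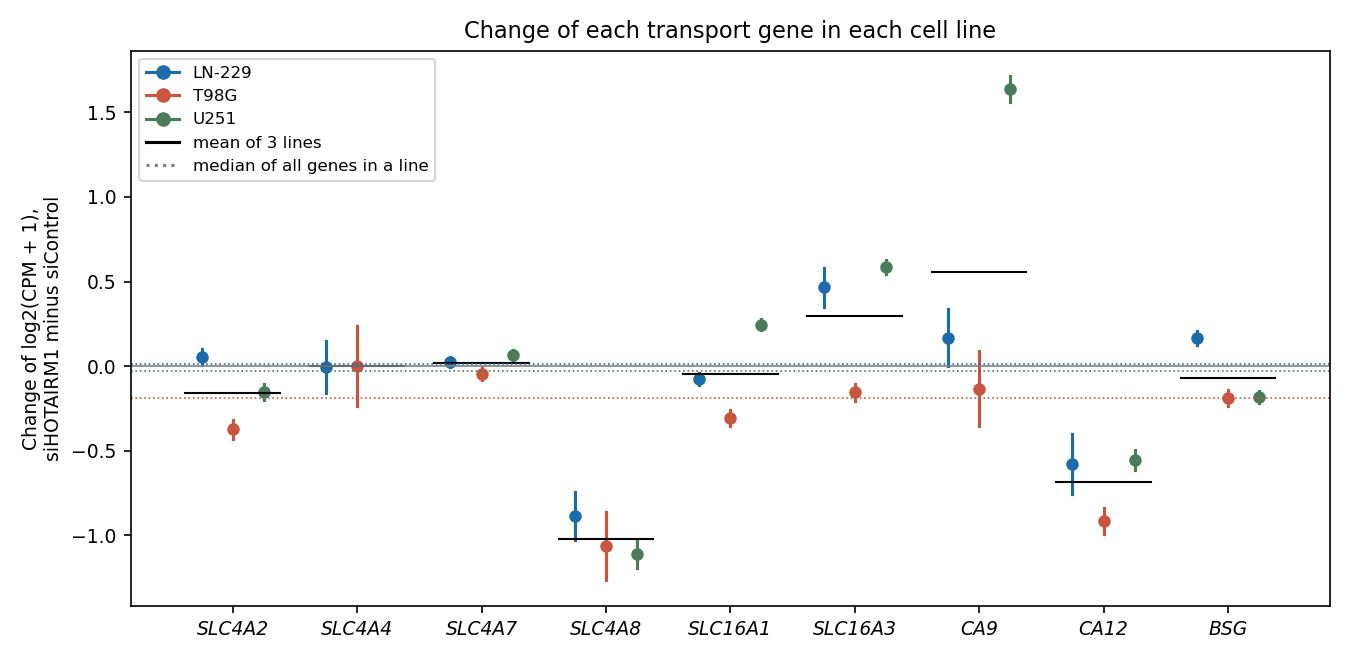
Change of log2(CPM + 1), siHOTAIRM1 minus siControl, of the 9 genes in each cell line, with bars for the 95% counting interval, black lines for the mean of the 3 lines and dotted lines for the median change of all genes in each line. SLC4A8 and CA12 lie below 0 in all 3 lines, and CA9 stands at 1.64 in U251. SLC4A4 has no U251 point because it had no reads there.

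For a background, changes were counted over the 14294 genes whose CPM averaged 1 or more, which included 8 of the 9 genes. In the limma fit over the 3 lines, 227 genes (1.59%) were lower and 59 (0.413%) higher past an adjusted p of 0.05. Of the 8 genes, SLC4A8 and CA12 were among the lower and 0 among the higher. As the genes were chosen with these changes known, nothing is read from these counts. Markers of cell types also differed, of which those past the threshold and GFAP are named after their values were seen. The neuronal marker SYT1 was lower in 3 of 3 lines (mean change -0.83, limma, adjusted p = 0.00138, n = 3 lines), as were 28.1% of the 14294 genes. RBFOX3 had 1 read in 1 library and none in the others. The summed neuronal markers went from 90.2 to 85.6 CPM in LN-229, from 41.7 to 26.9 CPM in T98G and from 68.8 to 41.3 CPM in U251. The macrophage marker CD68 was called lower (mean change -0.62, limma, adjusted p = 0.0223, n = 3 lines), lower in 2 of 3 lines. The summed leukocyte markers went from 0.864 to 0.888 CPM, from 9.81 to 4.19 CPM and from 3.26 to 1.39 CPM in the same order of lines, while PTPRC had at most 6 reads and AIF1 at most 1 read in a library. The glial marker GFAP had a level of 42.5 CPM in siControl and 20.7 CPM in siHOTAIRM1 of U251. In the same line VIM, CD44, OLIG2 and S100B changed by -0.45, -0.52, -0.08 and -0.21. NES, SOX2 and SOX9 changed there by 0.62, 0.36 and 0.56. The summed glial markers went from 1363 to 1352 CPM in LN-229 and from 1196 to 889 CPM in T98G. In U251 this sum went from 3110 to 2575 CPM. The part of these markers in the values of SLC4A8 and CA12 was not tested. Without T98G the fit called 0 genes (1206 at an unadjusted p under 0.05), and without U251 it called 149.

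Within a line, a difference of at least 0.5 on the log2(CPM + 1) scale was counted. In LN-229 it was reached upward by 1.47% of genes and by 0 of the 8, and downward by 0.993% of genes and by SLC4A8 and CA12. In T98G it was reached upward by 0.644% of genes and by 0 of the 8, and downward by 8.26% of genes and again by SLC4A8 and CA12. In U251 it was reached upward by 6.56% of genes, CA9 and SLC16A3 among them, and downward by 11.9% of genes, SLC4A8 and CA12 among them. T98G and U251 thus had more genes past this size than LN-229, and these counts too are a description.

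The median change of all genes differed between the lines, with 0.01 for LN-229, -0.19 for T98G and -0.03 for U251, and it became -0.03, 0.00 and 0.18 when each library was rescaled to the sum of its listed genes. As deposited, 28.1% of the 14294 genes were lower in all 3 lines. SLC4A8 and CA12 were lower in all 3 lines as deposited, after centring each library on its median and after this rescaling. Their least difference was that of CA12 in U251 after rescaling, -0.29. SLC16A3 in T98G turned from -0.15 to 0.04 with centring and to 0.07 with rescaling, so that it was higher in all 3 lines under both. CA9 in U251 was at 1.64, 1.72 and 1.91 under the 3 scalings, whereas in T98G it was at -0.13, 0.06 and -0.09.

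The smaller differences depended on the scaling. SLC4A7 in T98G turned from -0.05 to 0.15 and 0.18, and in LN-229 from 0.03 to -0.01 and -0.02. BSG in T98G turned from -0.19 to 0.01 and 0.04, and in U251 from -0.18 to 0.08 with rescaling. SLC4A2 in U251 turned from -0.15 to 0.11 with rescaling, and SLC16A1 kept its direction in each line under the 3 scalings while its mean turned from -0.05 to 0.03 and 0.10.

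**Figure D3:**
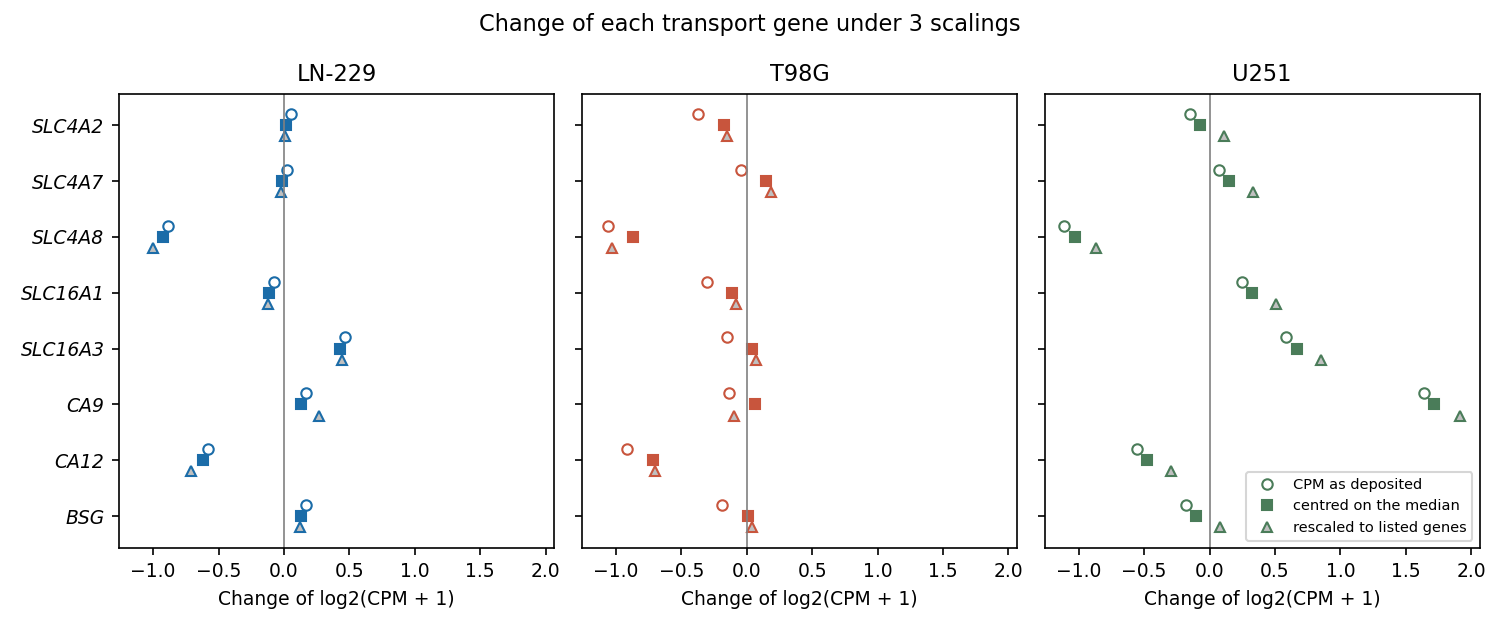
Change of log2(CPM + 1), siHOTAIRM1 minus siControl, of the 8 genes past the filter, with 1 panel per cell line, for CPM as deposited (open circles), centred on the median of each library (squares) and rescaled to the sum of the listed genes (triangles). SLC4A8 and CA12 stay left of 0 in every panel, and CA9 in U251 stays between 1.64 and 1.91.

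The levels also differed between the lines. In the mean of both conditions, U251 had the highest CPM as deposited of the 9 genes except SLC4A4. Listed genes held 67.2 and 55.9% of the CPM scale in U251 siControl and siHOTAIRM1, and 42.9 to 50.2% in the other lines. The part of this share in the order of the lines was not tested. The ratio of the highest to the lowest line was 210 for CA9, 20.3 for CA12, 14.0 for SLC16A3 and 8.90 for SLC4A8. It was 2.11 for SLC16A1, 1.81 for BSG, 1.63 for SLC4A2 and 1.36 for SLC4A7. The ranges of the 2 libraries of neighbouring lines overlapped for T98G and LN-229 in SLC4A2 and BSG, for LN-229 and T98G in SLC4A8, and for U251 and T98G in CA12, and the order of these neighbours is not set by the data. LN-229 was the lowest line for SLC16A3, CA9 and CA12.

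Levels were compared between genes per kilobase of the canonical transcript. BSG was the highest of the 9 in every library, at 44.1 to 51.8 CPM per kb in LN-229 and T98G and at 90.0 and 79.3 CPM per kb in U251. In LN-229 the main lactate transporter by this measure was SLC16A1, with 37.96 CPM per kb in siControl against 3.44 for SLC16A3. In T98G the 2 were near each other, with 32.1 for SLC16A1 and 35.0 for SLC16A3 in siControl. In U251 SLC16A1 led in siControl (55.9 against 46.4) and SLC16A3 in siHOTAIRM1 (69.9 against 66.4). CA9 in U251 went from 18.8 CPM per kb in siControl to 60.04 in siHOTAIRM1, where only BSG, SLC16A3 and SLC16A1 of the 9 were above it. CA12 went from 11.7 to 7.93 CPM per kb in the same line.

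For the 3 genes with the widest range over the libraries, the genes most like them were sought by the root-mean-square difference of log2(CPM + 1), centred over the 6 libraries. For CA9 they were NUP210 (0.32) and CDH4 (0.41), for CA12 CLEC2B (0.27) and TMSB4X (0.33), and for SLC16A3 IFITM1 (0.12) and EGLN3 (0.20). The 6 libraries come from only 3 lines, so this likeness is mostly a likeness in the order of the lines. EGLN3, a prolyl hydroxylase that acts on HIF, was at 0.453 and 0.606 CPM in LN-229, 10.7 and 12.0 CPM in T98G, and 19.9 and 21.7 CPM in U251.

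The wider set of pH genes held 105 genes in 7 lists, of which 51 passed the filter. In limma, 2 of the 51 fell and 0 rose past an adjusted p of 0.05, beside 1.59% of all genes lower and 0.413% higher. At an unadjusted p under 0.05 there were 13 of the 51, beside 2622 of all 14294. Among them was ATP6V0B, a subunit of the membrane part of the vacuolar proton ATPase, which acidifies endosomes and lysosomes. The median change of the 51 was 0.02 for LN-229, -0.32 for T98G and -0.09 for U251, beside 0.01, -0.19 and -0.03 for all genes. In T98G 43 of the 51 were lower and 7 higher as deposited, and 35 lower and 16 higher after centring, while 20.3% of all genes were higher there as deposited.

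ATP6V0B stood at 57.1 CPM in siControl and 53.2 CPM in siHOTAIRM1 of LN-229, at 65.0 and 36.3 CPM in T98G, and at 102 and 52.2 CPM in U251. Its mean change was -0.63 with an SE of 0.16 (limma, adjusted p = 0.0269, n = 3 lines). It was lower in 3 of 3 lines, as were 28.1% of the 14294 genes past the filter. The fall was 0.10 in LN-229 against 0.82 in T98G and 0.96 in U251. Its call was lost without T98G (adjusted p = 0.581), without U251 (0.465), with the libraries centred (0.163) and with rescaling (0.258). With these settings other than leaving out U251, the count of the 51 genes past the threshold was 0.

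None of the genes named in what follows passed the test, although AHCYL1 did with a pseudocount of 0.1 (limma, adjusted p = 0.0454, against 0.0813 with a pseudocount of 1). Of the other bicarbonate and anion exchangers 5 of 17 passed the filter. Among them were the sulphate transporter SLC26A2 (281 CPM on average, mean change -0.32), SLC26A6 (0.23) and AHCYL1 (-0.47), which encodes the SLC4 regulator IRBIT. Of the other monocarboxylate transporters and partners 10 of 17 passed it, including SLC16A7, which encodes MCT2 (28.5 CPM, -0.22), SLC16A13 (0.08) and SLC16A4 (-0.44). Of the other carbonic anhydrases 4 of 13 passed it, with CA13, a cytosolic form, the most abundant at 3.73 CPM and a mean change of -0.31. These are values of genes that did not pass the test.

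Among the sodium-proton exchangers and regulators 9 of 17 passed the filter. SLC9A7, an exchanger of the Golgi, was at 33.2 CPM on average with a mean change of -0.24. Of the vacuolar ATPase 19 of 25 subunits and accessory genes passed it. In T98G 18 of them were lower as deposited, beside 11335 of all 14294 genes. ATP6V1A was the most abundant (85.2 CPM, -0.13) and ATP6V0C had the largest positive mean change (0.10). Of the other channels, pumps and sensors the proton-sensing receptor GPR132 (15.1 CPM, 0.02) and the acid-sensing channel ASIC1 (3.11 CPM, 0.38) passed the filter. GPR132 did so through LN-229, with 3857 reads in siControl and 4849 in siHOTAIRM1. It had 3 and 2 reads in T98G and 2 and 3 in U251.

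The lactate dehydrogenases set U251 apart. LDHA, whose enzyme makes lactate from pyruvate, was at 14.3 CPM in siControl and 11.2 CPM in siHOTAIRM1 of U251, against 446 to 688 CPM in the other 4 libraries. Its 6 pseudogenes in the table were low in the same line, with a sum of 1.23 to 1.60 CPM in U251 and 33.4 to 98.2 CPM elsewhere. LDHB was at 385 and 242 CPM in U251, 320 and 344 CPM in LN-229, and 263 and 197 CPM in T98G. In CPM as deposited, U251 thus had the most SLC16A1, SLC16A3 and BSG of the 3 lines and the least LDHA. The mean changes were -0.24 for LDHA and -0.32 for LDHB, and neither passed the test (limma, adjusted p = 0.424 and 0.342, n = 3 lines).

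**Figure D4:**
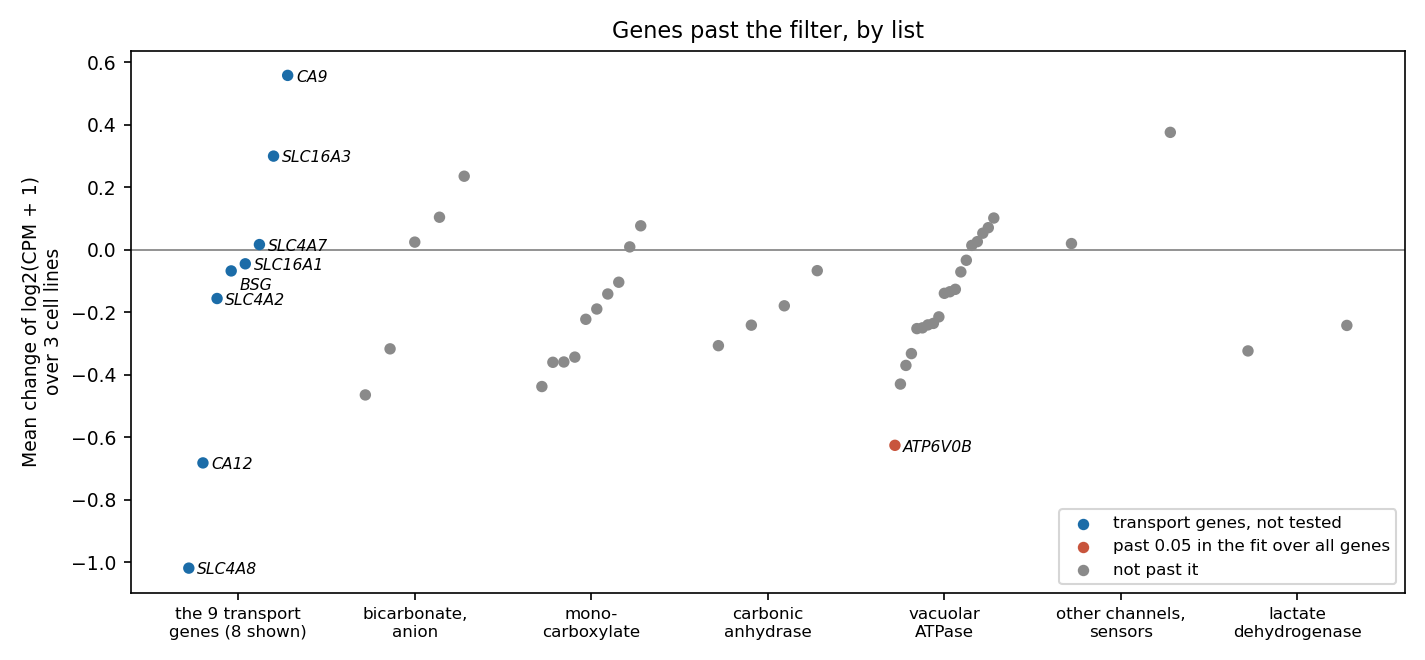
Mean change of log2(CPM + 1) over the 3 cell lines of the genes past the filter, with 1 point per gene, for the transport genes (blue) and 6 of the 7 wider lists. ATP6V0B (red) is the gene of these 6 lists past an adjusted p of 0.05 in limma, with a mean change of -0.63.

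Since CA9 and SLC16A3 are known HIF targets, 12 genes of the hypoxia response were set beside them. This list was chosen with earlier results of these data known, and it includes HIF1A and EPAS1, which encode subunits of HIF. All 12 passed the filter and 0 were called in limma (adjusted p from 0.101 to 0.926). In U251 12 of 12 were higher after knock-down, with a median change of 0.44 beside -0.03 for all genes, of which 45.7% were higher, and 5 of the 12 were past 0.5, beside 6.56% of all genes. The 12 of 12 in U251 held under each scaling, with medians of 0.52 after centring and 0.71 after rescaling. Outside the list, LDHA was lower in U251 as deposited (-0.32) and PGK1 higher (0.62). In LN-229 9 of 12 were higher, beside 53.3% of all genes (median 0.12 beside 0.01 for all genes, 1 past 0.5 beside 1.47%). In T98G 5 of 12 were higher, beside 20.3% of all genes (median -0.20 beside -0.19 for all genes, 2 past 0.5 downward beside 8.26%). After centring, 6 were higher and 6 lower in T98G. PDK1, the kinase that holds back pyruvate dehydrogenase, had the largest mean change (0.47, adjusted p = 0.0394 in limma with a pseudocount of 0.1 against 0.104 with 1), with 1.10 in U251, 0.23 in LN-229 and 0.09 in T98G. SLC2A1, the glucose transporter GLUT1, had the lowest mean (-0.13), with -0.28, -0.57 and 0.46. VEGFA (1.36), NDRG1 (1.47) and ADM (0.99), named after their values were seen, were the highest in U251 with PDK1.

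PGK1, a glycolytic enzyme and the reference gene of the study's qRT-PCR, was at 207 and 222 CPM in LN-229, 408 and 312 CPM in T98G, and 679 and 1043 CPM in U251. Its values on the log2(CPM + 1) scale, 0.10, -0.38 and 0.62, had the same sign in each line as those of CA9 and SLC16A3 as deposited. After rescaling, its change in U251 was 0.88. CA12 and SLC4A8 were lower in U251, where the hypoxia list was higher. The U251 libraries differed most in RN7SL1 and in depth (52.3 M reads in siControl and 101 M in siHOTAIRM1). The part of these differences in the U251 values was not tested.

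**Figure D5:**
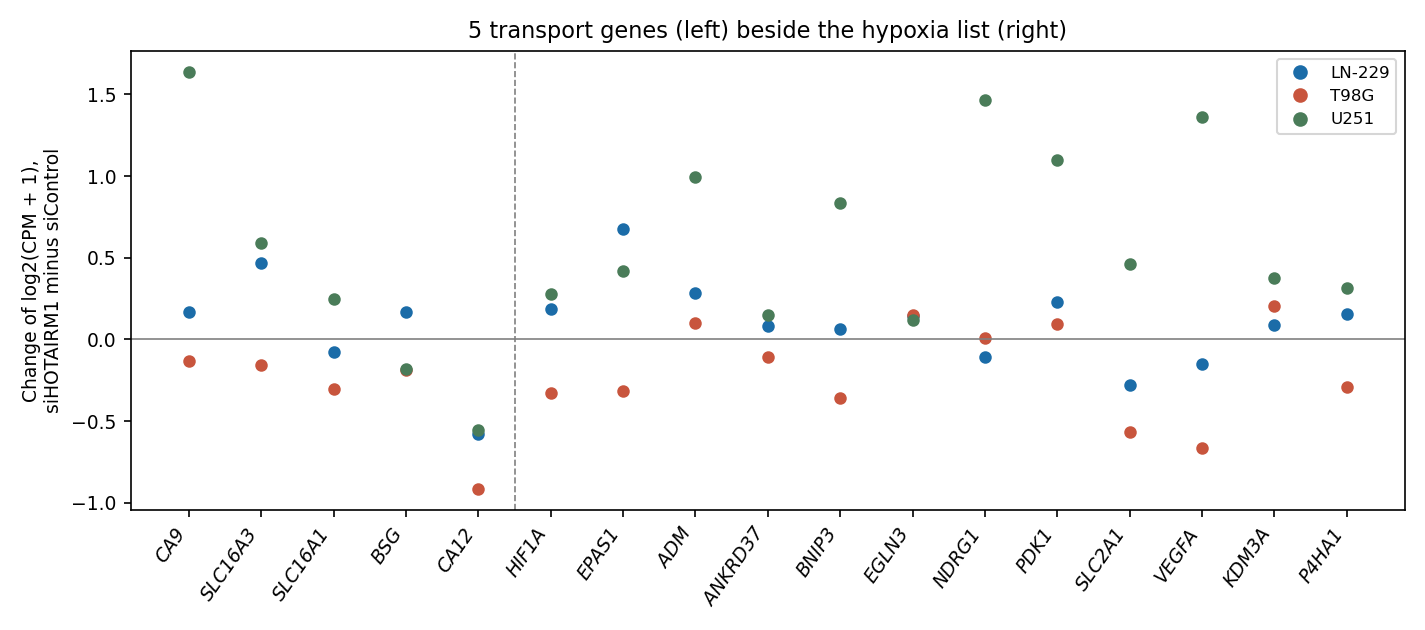
Change of log2(CPM + 1), siHOTAIRM1 minus siControl, in each cell line for 5 of the transport genes (left of the dashed line) and the 12 genes of the hypoxia list (right). In U251 all 12 hypoxia genes lie above 0, as do CA9, SLC16A3 and SLC16A1, while CA12 and BSG lie below it, BSG only as long as the libraries are not rescaled (0.08).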

How the data were processed

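RNA of 6 libraries (LN-229, T98G and U251, siControl and siHOTAIRM1) was prepared by the authors from 500 ng of total RNA with an unstranded TruSeq v2 kit and sequenced for 101 cycles. The submitters' processing notes name Partek, STAR 2.4.1d and hg38, and the methods add Ensembl release 84 with an Expectation-Maximization quantification. The deposited values are CPM with 0.0001 added, scaled by the authors to more reads than those on listed genes. From the steps of low values, 68.3 to 74.5% of values were whole reads within 0.01, too few for count tests, and the intervals use rounded reads.

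Changes are differences of log2(CPM + 1), which understates the change of low genes. For the 14294 genes averaging 1 CPM or more, limma 3.58.1 was run in R 4.3.3 with a trend and a block for cell line, and p-values (two-sided) were adjusted by Benjamini-Hochberg over all of them, with a threshold of 0.05. The fit was tested on simulated data. A first version of this test, which required a set number of moderate changes to be recovered, failed, and its criterion was then replaced by one on direction, size and errors, which the fit passed. The labels pair the libraries by cell line: deviations of same-line libraries correlated at 0.948 to 0.967 and those of different lines at -0.505 to -0.467. Whether replicates within a line would vary more is unknown, since each line has 1 library per condition.

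The 9 genes and all lists were chosen with earlier results of these data known. Named besides them were HOTAIRM1, PGK1, the genes of the wider lists past the threshold, in each list the gene with the highest level, largest rise and largest fall, the largest rise and fall of the hypoxia list, and for the 3 transport genes of widest range the 2 most similar genes. Gene overlaps and transcript lengths came from GENCODE v44 on hg38, and promoters from RefSeq. Alternatives were no block, a pseudocount of 0.1, no filter, median centring, rescaling to a sum of 1000000, a paired t-statistic per gene and leaving out each line. Python 3.11.15 with pandas 2.3.3 and matplotlib 3.10.9 was used. Some of the genes this rule names are not reported here. For lack of a protein table no protein sequence was analysed here.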

Additional observations from a re-analysis of the deposited data

Results flagged for a closer look

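For 5 of the transport genes, 1 line was higher and another lower after knock-down, each by more than its 95% counting interval, and these differences were not tested because each line has 1 library per condition. On the log2(CPM + 1) scale, SLC16A3 was higher by 0.59 in U251 and lower in T98G (-0.15), a difference of 0.74, and SLC16A1 was at 0.25 in U251 and -0.31 in T98G, a difference of 0.55. SLC4A2 was at 0.05 in LN-229 and -0.37 in T98G (a difference of 0.43), BSG at 0.17 in LN-229 and -0.19 in T98G (0.35), and SLC4A7 at 0.07 in U251 and -0.05 in T98G (0.11). CA9 also differed in sign between lines, with 0.17 in LN-229, 1.64 in U251 and -0.13 in T98G, but the counting interval of its T98G value included 0. T98G, the line whose median gene was at -0.19, was the lower one in each of the 5 pairs. After each library was centred on its median, opposite signs remained for SLC4A2 (0.02 and -0.17) and SLC16A1 (0.32 and -0.11). The other pairs had the same sign in both lines. These centred values were not set against counting intervals. Outside these pairs, BSG (0.13 in LN-229, -0.10 in U251) and SLC4A7 (-0.01 in LN-229, 0.15 in U251) still differed in sign.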

How the results depend on the processing

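Of all genes, 286 passed the threshold. The count was 683 with a pseudocount of 0.1, 41 with centring, 19 with rescaling, 0 without the filter (2477 at an unadjusted p under 0.05), 0 with a t-statistic computed per gene on the pairs (896) and 0 without the block for cell line (29), and it ranged from 0 to 270 when a line was left out. It was 0 without T98G and 149 without U251. The 2 pH genes became 0 without the block that pairs the libraries of a line, without the filter, with centring, with rescaling and with the t-statistic per gene (0, 12, 11, 7 and 4 at an unadjusted p under 0.05), 3 with a pseudocount of 0.1, where AHCYL1 joined them, and 0 to 2 when a line was left out, with 0 without T98G. Without U251 SLC16A6 was among the 2 and ATP6V0B was not. The cause of these losses was not tested.

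The mean change of a transport gene moved past its SD or turned its sign in these cases. With centring it was 0.077 for SLC4A4, 0.095 for SLC4A7, 0.033 for SLC16A1 and 0.010 for BSG. With rescaling it was 0.050 for SLC4A4, 0.17 for SLC4A7, 0.10 for SLC16A1 and 0.081 for BSG. With a pseudocount of 0.1 it was -0.0052 for SLC4A4 and -1.18 for SLC4A8. Leaving out a line gave -0.0021 to 0.00029 for SLC4A4, -0.010 to 0.047 for SLC4A7 and -0.19 to 0.085 for SLC16A1. The sign of the mean was kept with each line left out for SLC4A8 (-1.09 to -0.97), CA12 (-0.75 to -0.57), SLC16A3 (0.16 to 0.53), CA9 (0.02 to 0.90), SLC4A2 (-0.26 to -0.05) and BSG (-0.19 to -0.01).

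Counts of genes past 0.5 within a line moved with a pseudocount of 0.1 to 431 higher and 279 lower in LN-229, 227 higher and 1848 lower in T98G, and 1508 higher in U251. Centring gave 336 higher and 259 lower in T98G. Rescaling gave 245 lower in LN-229, 453 higher and 343 lower in T98G, and 2916 higher and 712 lower in U251. Depth limits CA9 in LN-229 and T98G and SLC4A4 in all lines, where no more than 98 reads were found in a library.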
